A study of Homo sapiens with 6 samples.

Results

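A set of 33 genes that are characteristic of the liver parenchyma was followed in LX-2, an immortal line of human hepatic stellate cells. It held 22 genes for proteins that hepatocytes secrete into the plasma and 11 genes for transcription factors of the liver lineage, and all 33 were found by symbol among the 60605 rows of the deposited table that carry an Ensembl identifier. The set was chosen from the measured difference between the groups described here, with the read counts in view, so the differences of its members between the groups are given as a description. No p-value is given for a member, and the number of members called in the fit over all genes is a count that the choice of the set has shaped. The cells spent 24 h in medium that had been conditioned by HCT116, a human colorectal carcinoma line, that carried either an empty vector (Vector-CM, n = 3) or an FGFBP1 overexpression construct (FGFBP1-CM, n = 3). FGFBP1 is a secreted carrier that frees fibroblast growth factors from the extracellular matrix. Both HCT116 lines were stable lines made with a lentiviral vector whose backbone also carries EGFP and puromycin resistance, and all cells were kept in DMEM with fetal bovine serum and antibiotics. LX-2 is a single line, and the labels do not say whether the 3 libraries of a group came from separate cultures, so the errors below measure the spread between these libraries. For the libraries, the study's methods name both poly(A) purification of mRNA and depletion of ribosomal RNA, and the labels name the depletion alone. The values are read counts per gene.

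Hepatocytes make most proteins of the blood plasma, among them albumin, transferrin, the apolipoproteins, fibrinogen and the protease inhibitors. Their genes are known to be switched on together by a network of liver-enriched transcription factors, which includes HNF4A, the FOXA proteins, the HNF1 proteins and C/EBP proteins and in which the factors also regulate each other. Hepatic stellate cells are the vitamin A-storing pericytes of the liver sinusoid and are mesenchymal cells, not hepatocytes. A few of the factors, such as GATA4 and HHEX, are also expressed outside hepatocytes.

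The promoters of 6 members are shown: ALB, AFP and FGA because they are 3 of the members with the largest differences below, FGB as the neighbour of FGA, and for contrast SERPINA1, the most abundant plasma protein transcript, and HHEX, an abundant factor. Each sequence is the 250 bases before the transcription start, read 5′ to 3′ on the strand of the gene, from RefSeq on GRCh38.p14. Capitals mark matches to the 5 motifs searched on both strands. The HNF1 motif was written as GTTAAT, the motif of the forkhead proteins as TGTTTAC, and the core of the HNF4 motif as CAAAGTC. The C/EBP motif was written as TTGCNNAA, where N is any base, and the TATA box as TATAAA. ALB lies on the plus strand at chr4:73404037-73404286 and AFP on the plus strand at chr4:73435971-73436220. FGA lies on the minus strand at chr4:154590743-154590992 and FGB on the plus strand at chr4:154562730-154562979. SERPINA1 lies on the minus strand at chr14:94388603-94388852 and HHEX on the plus strand at chr10:92689705-92689954. FGB and SERPINA1 have further starts in the table, which are not printed.
ALB: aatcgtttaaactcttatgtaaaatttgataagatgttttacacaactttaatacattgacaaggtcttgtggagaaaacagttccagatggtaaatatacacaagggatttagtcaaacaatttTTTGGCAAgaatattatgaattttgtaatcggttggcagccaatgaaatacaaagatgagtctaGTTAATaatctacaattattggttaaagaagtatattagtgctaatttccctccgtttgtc
AFP: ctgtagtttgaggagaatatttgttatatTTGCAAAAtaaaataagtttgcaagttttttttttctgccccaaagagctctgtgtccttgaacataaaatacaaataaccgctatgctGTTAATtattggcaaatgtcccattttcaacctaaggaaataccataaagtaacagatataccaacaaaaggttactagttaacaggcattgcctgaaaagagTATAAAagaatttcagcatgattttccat
FGA: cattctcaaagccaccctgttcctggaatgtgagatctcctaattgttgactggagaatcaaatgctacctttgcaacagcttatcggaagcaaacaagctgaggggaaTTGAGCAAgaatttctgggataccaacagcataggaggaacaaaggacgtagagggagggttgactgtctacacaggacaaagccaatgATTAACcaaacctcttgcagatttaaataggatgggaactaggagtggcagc
FGB: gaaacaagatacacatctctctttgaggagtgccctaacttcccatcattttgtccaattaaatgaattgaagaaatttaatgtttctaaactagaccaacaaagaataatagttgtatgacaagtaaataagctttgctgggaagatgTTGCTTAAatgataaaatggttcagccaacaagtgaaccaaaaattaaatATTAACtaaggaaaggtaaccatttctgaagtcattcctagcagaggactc
SERPINA1: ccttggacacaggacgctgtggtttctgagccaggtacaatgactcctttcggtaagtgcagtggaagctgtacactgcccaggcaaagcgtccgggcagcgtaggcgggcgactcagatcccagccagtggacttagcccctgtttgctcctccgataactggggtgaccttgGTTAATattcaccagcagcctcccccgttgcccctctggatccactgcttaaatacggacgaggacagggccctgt
HHEX: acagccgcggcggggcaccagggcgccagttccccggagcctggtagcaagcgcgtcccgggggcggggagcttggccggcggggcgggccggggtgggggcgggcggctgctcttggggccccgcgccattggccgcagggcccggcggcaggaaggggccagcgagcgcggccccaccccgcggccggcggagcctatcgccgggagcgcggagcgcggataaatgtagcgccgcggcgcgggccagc

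The ALB, FGA and FGB windows each held 1 HNF1 match and 1 C/EBP match, AFP held these and a TATA box, SERPINA1 held 1 HNF1 match, and HHEX held none of the 5 motifs. The SERPINA1 window that is not printed also held none of the 5 motifs, and which start the LX-2 cells used was not tested. The HNF1 matches lay 61 bases before the start in ALB, 132 in AFP, 52 in FGA, 51 in FGB and 76 in SERPINA1. The ALB window was 30.0% G and C and the AFP window 31.6%, against 81.2% in HHEX and a median of 58% over all promoters. Among the 33 genes, 23 were matched in the promoter table, with 28 entries because some genes have several starts. APOA1, FOXA2, TTR, HP, APOB, APOC3, ITIH2, PROX1, SERPINC1 and GATA4 were not matched. The HNF1 motif was found in 44.4% of the 18 plasma protein entries and 30% of the 10 factor entries, against 6.23% of 35116 promoters of the same length. The C/EBP motif was found in 50% of the plasma protein entries and in 0 of the factor entries, against 9.05% of all. Forkhead and HNF4 matches were each found in 2 of the 28 entries, or 7.14%, against 2.98% and 2.91% of all promoters. The TATA box was found in 4 of the 28 entries, or 14.3%, against 10.7% of all promoters. These are matches of letters in a short window, not shown sites, and entries of 1 gene share sequence.

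**Figure D1:**
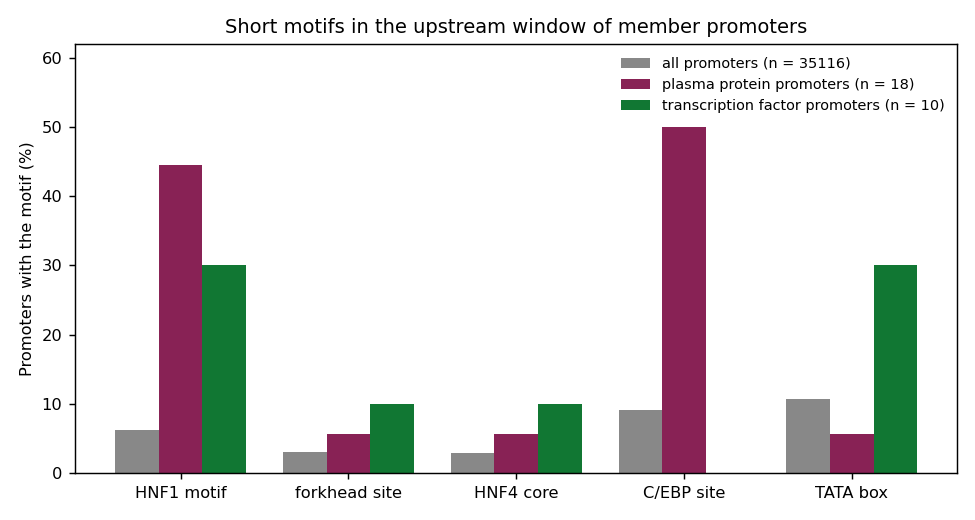
Share of promoters (%) with each of 5 short motifs in the 250 bases before the start, for all 35116 promoters, the 18 plasma protein entries and the 10 transcription factor entries. The HNF1 motif stood at 44.4% in plasma protein entries against 6.23% of all, and the C/EBP motif at 50% against 9.05%.

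The 6 libraries held between 14003780 and 18508113 counts, so that a count of 3 corresponded to 0.158 to 0.217 CPM. CPM is the count of a gene scaled to the total count of its library after TMM adjustment of that total. FPKM is the deposited value, which is also divided by the gene length. The line carried the markers of its label: 17 of 20 stellate and fibroblast markers passed the filter on low counts, led by VIM, TIMP1 and SPARC, while LRAT, which esterifies vitamin A in quiescent stellate cells, was at 0 in all 6 libraries. Of 20 colorectal epithelial markers, 6 passed the filter, KRT8, KRT18 and CLDN4 the most abundant, while CEACAM5, CEACAM6 and TFF3 were at 0 in all 6 libraries. FGFBP1-CM replicate 1 stood farthest out on the first principal component. In the edgeR quasi-likelihood fit over 16707 genes, 20 genes passed an adjusted p of 0.05, 9 higher and 11 lower in FGFBP1-CM.

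Most members were close to the limit of detection. The filter of edgeR, which asks for the equivalent of 10 counts at the median library size in at least 3 libraries, was passed by 14 of the 33 members. The other 19 were described by their counts, and 9 of these had under 10 counts over the 6 libraries together. APOB and FGA reached the filter level in no FGFBP1-CM library, and ALB, AFP and TF reached it in 1, so these 5 passed through the group in which they were higher. Per length, the most abundant members were GATA4, with a mean of 7.23 FPKM over the 6 libraries, HHEX with 6.72 and SERPINA1 with 5.10, against a median of 3.90 over all tested genes. VTN stood at 1.06 FPKM, AFP at 0.583 and ALB at 0.582, below the 25th percentile of tested genes of 1.14 FPKM.

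Of the 14 members that passed the filter, APOB, ALB, AFP, FGA and TF were the 5 with the most negative log2 fold changes, SERPINA1, VTN and NR5A2 were lower by less, and HPX, SERPINC1, GATA4, HHEX, PROX1 and FOXA1 had overlapping groups. In all, 4 members passed the threshold, APOB, ALB, AFP and FGA, each lower in FGFBP1-CM, and 0 were higher. That is 4 of the 14 tested members, beside 0.0658% of all tested genes called lower, and because the members were chosen on this contrast nothing is read from the difference. Some calls were lost when a Vector-CM library was left out, while the log2 fold changes stayed between -4.70 and -3.32 for FGA, -4.04 and -3.38 for APOB, -2.75 and -2.22 for ALB, and -2.45 and -1.99 for AFP whichever of the 6 libraries was left out. APOB, ALB and AFP passed without Vector-CM replicate 1, APOB and ALB without Vector-CM replicate 2, and APOB alone without Vector-CM replicate 3, and the number rose to 6 without FGFBP1-CM replicate 2. Without FGFBP1-CM replicate 1, the library that stood apart, the same 4 members passed. The choice of the members has shaped these repeated counts as well, and nothing is read from them. DESeq2 called 1 member, SERPINA1, and gave no adjusted p for 28 of the 33, and limma on log2(FPKM + 1) called 0. The CPM of the groups did not overlap for 8 of the 14, all lower in FGFBP1-CM, beside 13.2% of all tested genes, and nothing is read from that either. Summed over all 22 plasma protein genes, the level was 46.6 to 49.8 CPM with Vector-CM against 22.5 to 32.0 CPM with FGFBP1-CM, a 1.81-fold difference of the means, and most of this sum was SERPINA1. Over the other 21, the level was 16.6 to 20.8 CPM with Vector-CM against 5.69 to 6.59 CPM with FGFBP1-CM, a 3.04-fold difference. The 11 factor genes summed to 56.9 to 62.7 CPM with Vector-CM against 58.6 to 64.5 CPM with FGFBP1-CM, with overlapping groups. Most of this sum was GATA4 and HHEX, so it says little of the sparse factors. In bulk RNA, fewer cells that express the members and less RNA per cell cannot be told apart. Whether the sparse reads of the members all came from LX-2 transcripts was not tested.

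**Figure D2:**
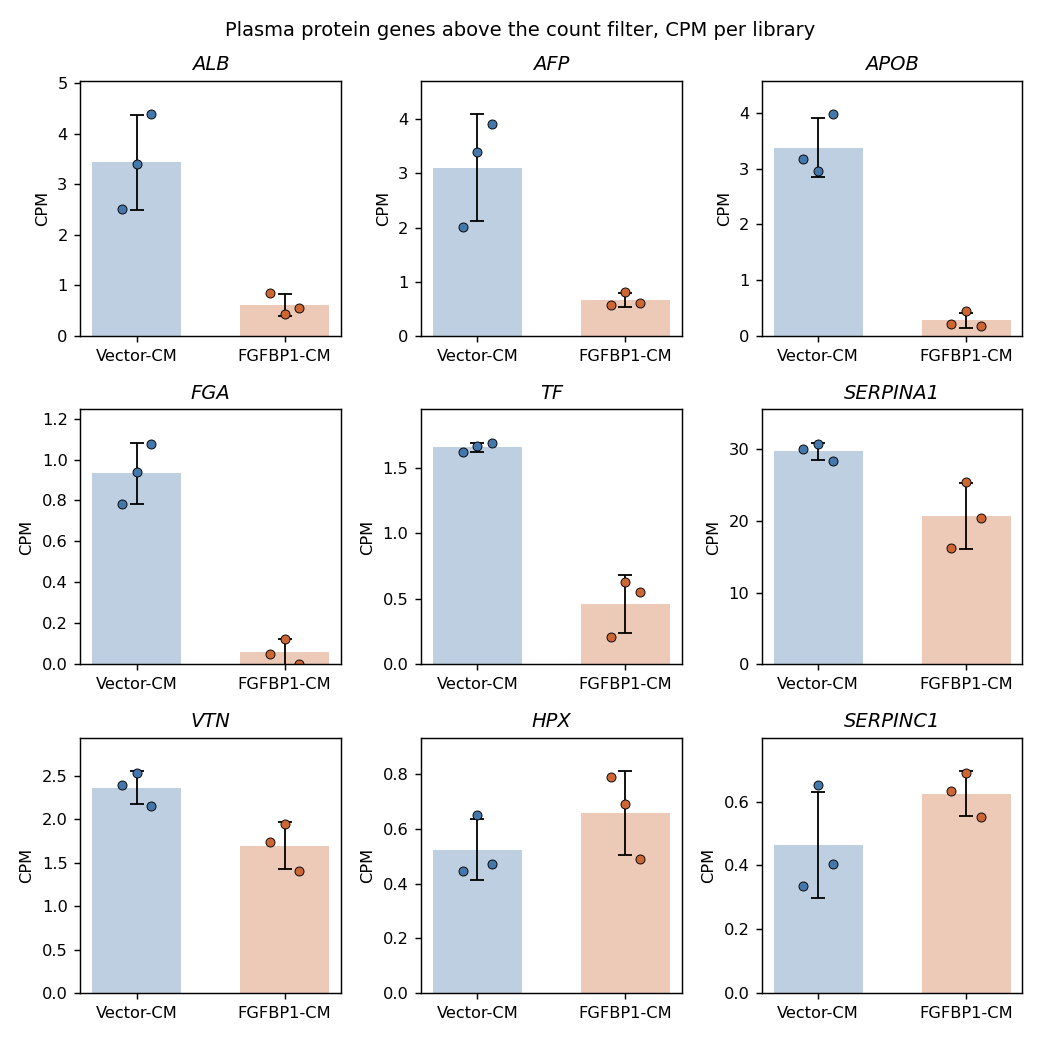
CPM of the 9 plasma protein genes that passed the filter, with 1 point per library, bars at the group mean and error bars of 1 SD (n = 3 per group, each axis from 0 and the FGA error bar ending at 0). ALB, AFP, APOB, FGA, TF, SERPINA1 and VTN did not overlap between the groups, while HPX and SERPINC1 did.

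ALB encodes albumin, the main carrier protein of plasma, and AFP encodes its fetal counterpart alpha-fetoprotein. They are neighbours on the plus strand of chromosome 4 in GENCODE release 29 (GRCh38), ALB at 73397114 to 73421412 and AFP at 73431138 to 73456174. Both spans begin before the RefSeq starts used for the promoter windows above, so the 2 annotations differ in the start. ALB had 45, 47 and 65 counts in Vector-CM replicates 1, 2 and 3, and 16, 7 and 9 counts in FGFBP1-CM replicates 1, 2 and 3. Every FGFBP1-CM library lay below every Vector-CM library. ALB averaged 3.43 ± 0.934 CPM (SD, n = 3) with Vector-CM against 0.611 ± 0.209 CPM with FGFBP1-CM, and the log2 fold change was -2.44 with a standard error of 0.307. AFP had 36, 47 and 58 counts in Vector-CM and 11, 13 and 10 in FGFBP1-CM. It was likewise lower in each FGFBP1-CM library, at 3.11 ± 0.983 CPM (SD, n = 3) against 0.669 ± 0.128 CPM, with a log2 fold change of -2.19 and a standard error of 0.312. The AFP and ALB promoters printed above share the low content of G and C and both motifs. The ratio of ALB to AFP counts was 1.00 to 1.25 in the Vector-CM libraries and 0.538 to 1.45 in the FGFBP1-CM libraries, so the ranges overlapped.

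The nearest genes outside the set that passed the filter were not lower, though they were not adjacent. Between ANKRD17 and ALB lay 4 other genes, and between AFP and CXCL8 lay 7. ANKRD17, which lies before ALB, averaged 154 ± 4.08 CPM (SD, n = 3) with Vector-CM against 186 ± 9.66 CPM with FGFBP1-CM, with a log2 fold change of 0.28, a standard error of 0.0635 and groups that did not overlap. CXCL8, the interleukin 8 gene on the far side of AFP, was at 808 ± 51.6 CPM against 812 ± 90.4 CPM. Neither passed the threshold in the edgeR fit, with adjusted p of 0.0634 and 0.974.

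TF encodes transferrin, which carries iron in plasma. It had 29, 23 and 25 counts in Vector-CM and 4, 10 and 9 in FGFBP1-CM. The groups did not overlap, and FGFBP1-CM replicate 1 was the lowest library. Its level was 1.66 ± 0.0335 CPM (SD, n = 3) against 0.463 ± 0.222 CPM, with a log2 fold change of -1.86 and a standard error of 0.340. Its annotated exons cover 26199 bases and share 303 bases with the overlapping genes TFP1 and SRPRB, so its reads may not all be of the transferrin mRNA.

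The remaining carriers were sparse. AMBP, the precursor of alpha-1-microglobulin and bikunin, had 10, 7 and 12 counts in Vector-CM and 4, 2 and 2 in FGFBP1-CM. Pooled over libraries and divided by library size, its ratio of FGFBP1-CM to Vector-CM was 0.251, with a 95% exact counting interval of 0.0991 to 0.562. Such intervals cover counting error only, since the reads carry no molecular identifiers and the spread between libraries is not in them. HP, which binds free haemoglobin, had 6, 3 and 3 counts against 1, 0 and 1, a pooled ratio of 0.152 with an interval of 0.0165 to 0.681. HPX, which binds free haem, was not lower, with 8, 9 and 7 counts against 15, 11 and 8 and a log2 fold change of 0.35 with a standard error of 0.360. Its groups overlapped. A1BG, an abundant plasma glycoprotein, had 12, 7 and 3 counts against 10, 5 and 9, and its exons share 2039 bases with overlapping genes, A1BG-AS1 among them. TTR, the carrier of thyroxine and of retinol-binding protein, had 1, 0 and 2 counts against 0 in each FGFBP1-CM library, and AHSG, the mineral-binding fetuin A, had 2, 0 and 0 against 1, 0 and 0. No fold is given for TTR and AHSG at these counts.

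APOB encodes the structural protein of very low and low density lipoprotein and had, after FGA, the lowest pooled ratio of the members with at least 10 counts in all. It had 57, 41 and 59 counts in Vector-CM and 4, 7 and 3 in FGFBP1-CM. The highest FGFBP1-CM library therefore held 7 counts and the lowest Vector-CM library 41. The mean level was 3.37 ± 0.531 CPM (SD, n = 3) against 0.278 ± 0.140 CPM, with a log2 fold change of -3.59 and a standard error of 0.323. The pooled ratio was 0.0811, with an interval of 0.0433 to 0.140. The APOB exons share 169 bases with another gene. Its nearest tested neighbours showed overlapping groups, LDAH at 25.1 ± 0.997 CPM (SD, n = 3) against 24.5 ± 1.03 CPM and KLHL29 at 39.8 ± 1.16 CPM against 41.0 ± 2.58 CPM. Between APOB and LDAH lay 1 other gene, and between APOB and KLHL29 lay 25.

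The small apolipoproteins were at the limit of detection. APOA1, the main protein of high density lipoprotein, had 3, 1 and 1 counts in Vector-CM and 0 in each FGFBP1-CM library. With FGFBP1-CM set at a floor of 3 counts over the group, the difference was 1.83-fold. That value takes the Vector-CM counts as exact, and the counting interval of the pooled ratio was 0 to 0.992, which nearly reached 1. APOA1 exons share 123 bases with the antisense gene APOA1-AS. APOA2, its partner on the same particles, had 1, 2 and 0 counts against 0 in each FGFBP1-CM library. APOC3, which slows the clearance of triglyceride-rich particles, and APOH, a phospholipid-binding protein, were at 0 in all libraries but FGFBP1-CM replicate 3, which held 1 count of each. The 5 apolipoproteins summed to 3.18 to 4.04 CPM with Vector-CM against 0.211 to 0.439 CPM with FGFBP1-CM, and nearly all of this was APOB.

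FGA, FGB and FGG encode the 3 chains of fibrinogen, the clotting protein, and lie side by side on chromosome 4. FGA had 14, 13 and 16 counts in Vector-CM and 1, 2 and 0 in FGFBP1-CM, and the groups did not overlap. Its level was 0.933 ± 0.148 CPM (SD, n = 3) against 0.0594 ± 0.0630 CPM. The pooled ratio was 0.0634 with a 95% counting interval of 0.0126 to 0.198, and the fitted log2 fold change of -3.82, with a standard error of 0.569, depends on the prior count because FGFBP1-CM held 3 counts in all. FGB had 6, 5 and 5 counts against 1, 2 and 0, a pooled ratio of 0.170 with an interval of 0.0318 to 0.595. FGG had 8, 7 and 7 counts against 1, 2 and 1, a pooled ratio of 0.165 with an interval of 0.0414 to 0.487. For all 3 chains each Vector-CM library held at least 5 counts and no FGFBP1-CM library more than 2. The intervals of the 3 ratios overlapped, so unequal change among the chains was not detectable at this depth. Tested genes on either side of the cluster were not lower. PLRG1 averaged 59.0 ± 2.92 CPM (SD, n = 3) with Vector-CM against 71.9 ± 8.21 CPM with FGFBP1-CM. MAP9 averaged 31.1 ± 4.27 CPM against 40.3 ± 2.56 CPM. Both were higher in each FGFBP1-CM library but did not pass the threshold. Between PLRG1 and FGA lay 3 genes, and between FGA and MAP9 lay 12, the other fibrinogen genes included.

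The other clotting and adhesion genes had smaller differences. F2, the prothrombin gene, had 4, 2 and 2 counts against 3, 0 and 3, a pooled ratio of 0.682 with an interval of 0.195 to 2.24. VTN encodes vitronectin, an adhesion protein of plasma and matrix. It had 43, 35 and 32 counts in Vector-CM and 33, 31 and 23 in FGFBP1-CM, or 2.36 ± 0.191 CPM (SD, n = 3) against 1.70 ± 0.272 CPM. The log2 fold change of VTN was -0.47 with a standard error of 0.219. VTN exons share 329 bases with another gene.

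SERPINA1, which encodes alpha-1-antitrypsin, was the plasma protein gene of the set with the most counts in each library. It had 537, 423 and 420 counts in Vector-CM and 307, 405 and 333 in FGFBP1-CM. All FGFBP1-CM libraries were lower in CPM, replicate 1 the lowest. The level was 29.6 ± 1.19 CPM (SD, n = 3) against 20.7 ± 4.62 CPM, with a log2 fold change of -0.53 and a standard error of 0.129. Its pooled ratio was 0.688, with an interval of 0.635 to 0.747. SERPINC1, the antithrombin gene, had 6, 9 and 6 counts against 12, 11 and 9, with overlapping groups and a log2 fold change of 0.46 with a standard error of 0.377. ITIH2, a heavy chain of the inter-alpha-trypsin inhibitor, had 7, 8 and 5 counts against 3, 2 and 4, a pooled ratio of 0.409 with an interval of 0.164 to 0.940.

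**Figure D3:**
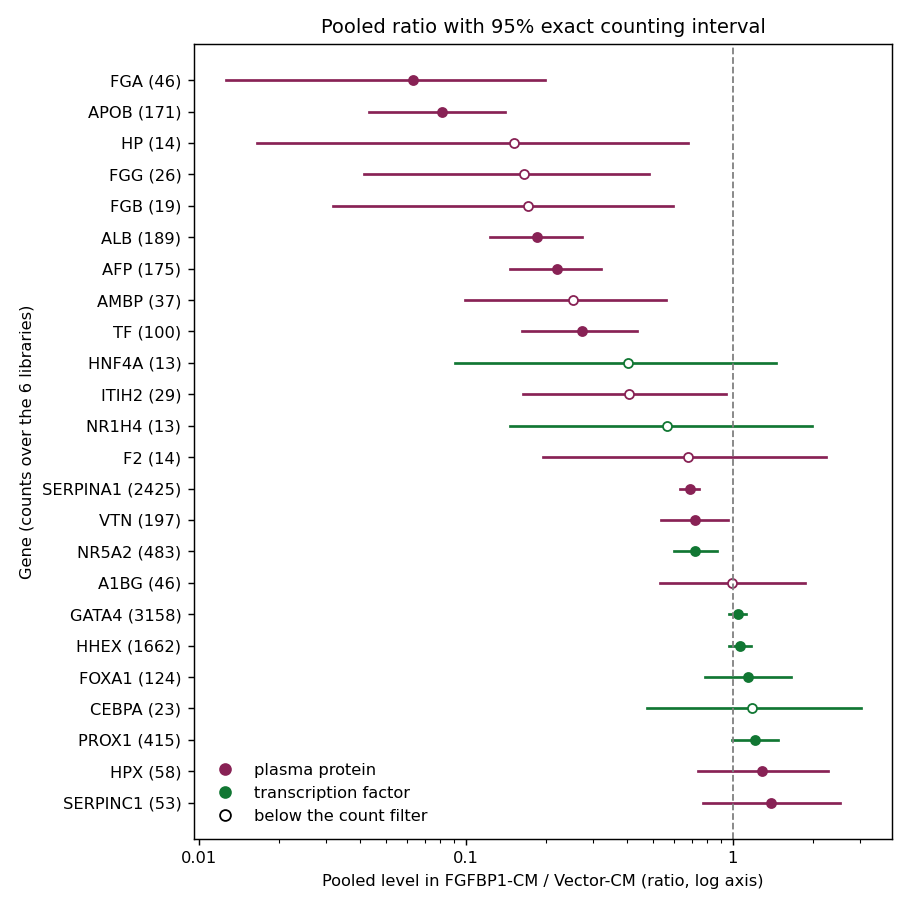
Pooled level in FGFBP1-CM divided by Vector-CM (log axis) for the 24 members with at least 10 counts in all, as points with 95% exact counting intervals, and with open points for genes below the filter. FGA, APOB, HP, FGG, FGB, ALB, AFP, AMBP and TF lay at ratios of 0.0634 to 0.272, and GATA4 and HHEX at 1.04 and 1.06.

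Among the transcription factors, GATA4 and HHEX were the most abundant. GATA4, a zinc finger factor of endoderm and heart, had 546, 447 and 479 counts in Vector-CM and 691, 487 and 508 in FGFBP1-CM. Its level was 31.7 ± 1.05 CPM (SD, n = 3) against 32.7 ± 3.26 CPM, with a log2 fold change of 0.05 and a standard error of 0.0864, and without FGFBP1-CM replicate 1 the sign turned to -0.04. HHEX, a homeobox factor of the liver bud, had 279, 226 and 261 counts against 343, 283 and 270, or 16.5 ± 1.01 CPM (SD, n = 3) against 17.5 ± 0.832 CPM. Both had overlapping groups. The counting interval of the pooled ratio was 0.970 to 1.12 for GATA4 and 0.964 to 1.17 for HHEX.

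PROX1, a homeobox factor of hepatoblasts and lymphatic endothelium, had 74, 40 and 64 counts in Vector-CM and 76, 83 and 78 in FGFBP1-CM. PROX1 exons share 171 bases with PROX1-AS1. The CPM overlapped, and the log2 fold change was 0.29 with a standard error of 0.188. NR5A2, a nuclear receptor of bile acid and cholesterol metabolism, had 91, 88 and 90 counts in Vector-CM and 66, 68 and 80 in FGFBP1-CM. Among the 5 factors that passed the filter it was the one whose groups did not overlap, at 5.84 ± 0.672 CPM (SD, n = 3) against 4.21 ± 0.707 CPM, with a log2 fold change of -0.47 and a standard error of 0.170. FOXA1, a pioneer factor of endoderm, had 16, 17 and 22 counts against 31, 21 and 17, with a log2 fold change of 0.18 and a standard error of 0.287. The direction for FOXA1 rests on single libraries, since it was -0.02 without Vector-CM replicate 1 and -0.01 without FGFBP1-CM replicate 1.

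The central hepatocyte factors were barely detected. HNF4A, the nuclear receptor that defines the hepatocyte programme, had 3, 3 and 3 counts in Vector-CM and 1, 2 and 1 in FGFBP1-CM, a pooled ratio of 0.404 with an interval of 0.0909 to 1.45. A difference in HNF4A was thus not detectable at this depth. CEBPA, the C/EBP factor of mature hepatocytes and fat cells, had 4, 3 and 3 counts against 7, 4 and 2, and its exons share 1141 bases with overlapping genes. NR1H4, the bile acid receptor, had 3, 1 and 4 counts against 4, 0 and 1, and ONECUT1, a factor of the hepatoblast stage, had 0, 0 and 4 against 2, 1 and 1. The forkhead factors FOXA2 and FOXA3 had at most 2 counts in any library, FOXA2 in Vector-CM replicate 1 and FGFBP1-CM replicate 1 and FOXA3 in Vector-CM replicate 1 alone.

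**Figure D4:**
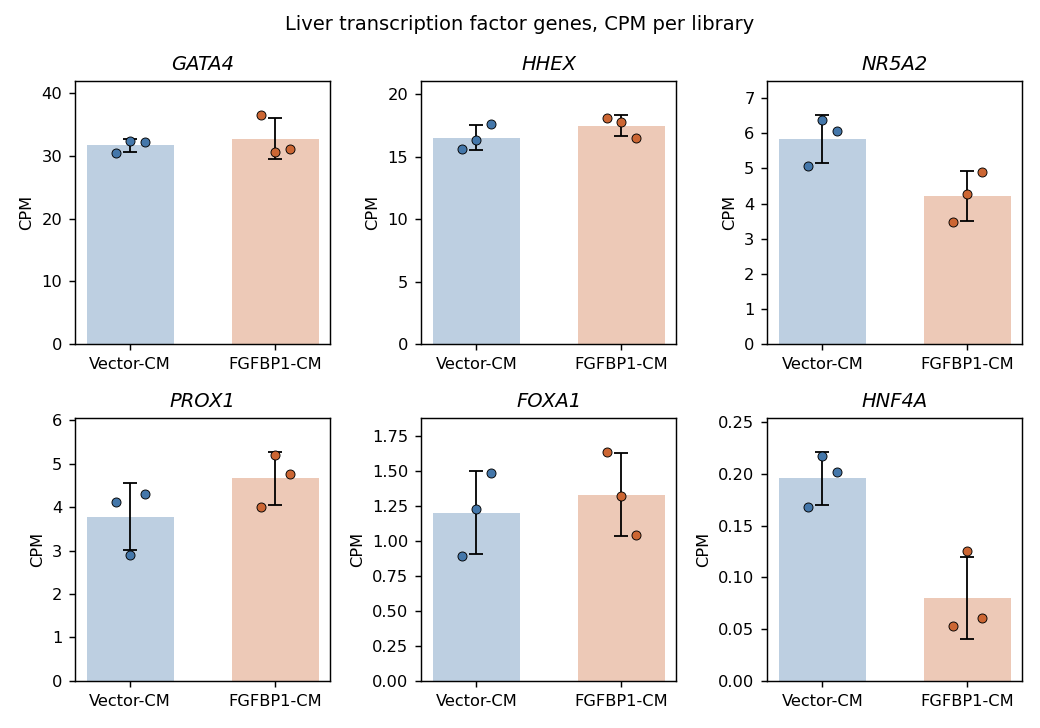
CPM of 6 liver transcription factor genes with 1 point per library, bars at the group mean and error bars of 1 SD (n = 3 per group, each axis from 0). GATA4, HHEX, PROX1 and FOXA1 overlapped between the groups, NR5A2 was lower in each FGFBP1-CM library, and HNF4A rests on 1 to 3 counts per library.

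Other liver genes, from lists also drawn up with earlier results of these data known, were compared with the members by the same counts. Of 40 other plasma protein genes, 7 passed the filter and 0 passed the threshold. Their median log2 fold change was -0.35, beside 0.00 over all tested genes. The most abundant was SERPING1, the C1 inhibitor of complement, at 773, 592 and 610 counts in Vector-CM and 552, 624 and 558 in FGFBP1-CM, with a log2 fold change of -0.31 and a standard error of 0.0967. C3, the central complement protein, had a log2 fold change of -0.35 with a standard error of 0.115, and F10, a clotting factor, of -0.22 with a standard error of 0.169. ORM1, APOA4, APOC4, F7, SERPINA7, F11 and HRG were at 0 in all 6 libraries.

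Among the liver metabolic enzymes no gene was called. Of the 25 found in the table, 3 passed the filter and 0 the threshold, and OTC, ADH1A, CYP7A1 and UGT2B7 were at 0 in all 6 libraries. CPS1, the first enzyme of the urea cycle, had 783, 620 and 684 counts in Vector-CM and 768, 706 and 750 in FGFBP1-CM, with overlapping groups and a log2 fold change of -0.04 with a standard error of 0.0733. CYP27A1, which oxidises the cholesterol side chain, had 11, 9 and 9 counts against 17, 13 and 5. TDO2, which degrades tryptophan, had 19, 13 and 19 counts against 47, 30 and 35, a log2 fold change of 0.99 with a standard error of 0.244, and did not pass the threshold.

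Of 18 other liver transcription factors, 12 passed the filter and 0 the threshold, with a median log2 fold change of 0.04. NR2F2, XBP1 and CEBPB, the most abundant of them, had log2 fold changes of -0.14, -0.10 and 0.22 and overlapping groups. Of 9 hepatoblast genes, 2 passed the filter, TBX3 and IGF2BP3, at log2 fold changes of 0.11 and 0.22 with overlapping groups, and 0 passed the threshold. Of 12 genes for the assembly and uptake of APOB particles, 10 passed the filter and 0 the threshold, with a median of -0.16. SURF4 and SEC24A, which carry APOB out of the endoplasmic reticulum, had log2 fold changes of -0.11 and -0.21, and P4HB, the small subunit of the lipid transfer complex, of -0.31.

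Cell type markers measured in the same libraries stand beside these values. The 20 stellate and fibroblast markers summed to 4129 to 4424 CPM with Vector-CM against 3114 to 3797 CPM with FGFBP1-CM, with 1 gene called, TIMP1, an inhibitor of matrix metalloproteinases, at a log2 fold change of -0.38. The median of the 17 that passed the filter was -0.32. The 20 colorectal epithelial markers summed to 228 to 252 CPM against 217 to 237 CPM, with 6 past the filter, 0 called and most of the sum from KRT8 and KRT18. CLDN4, a tight junction protein, had 124, 121 and 106 counts against 189, 161 and 109, and CDH17, an intestinal cadherin named here after its values were seen, had 68, 38 and 61 against 48, 56 and 48, both with overlapping groups. The 10 bile duct epithelial markers summed to 88.6 to 103 CPM against 98.2 to 116 CPM, with 6 past the filter, 0 called, and SOX9 and ANXA4 at the top. The part of any change in cell make-up in the values of the members was not tested.

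**Figure D5:**
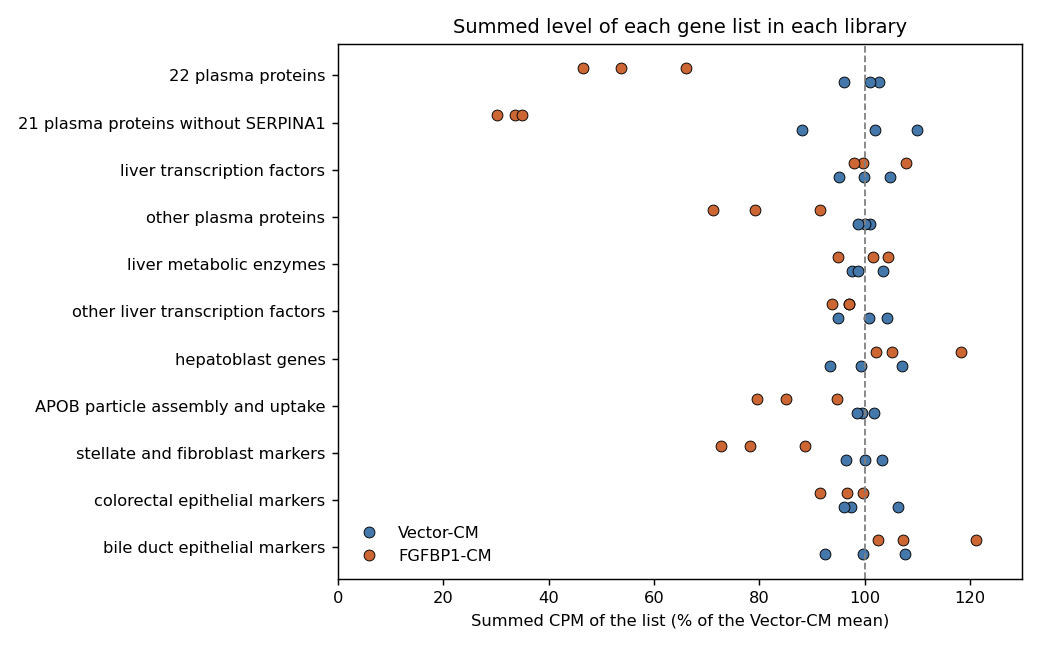
Summed CPM of each gene list in each library, as a percentage of the mean of the Vector-CM libraries for that list. The 22 plasma protein genes stood at 46.4 to 66.0% in FGFBP1-CM, the 21 plasma protein genes without SERPINA1 at 30.1 to 34.9%, the stellate and fibroblast markers at 72.8 to 88.7%, and the liver transcription factors at 98.1 to 108%. Most of the factor sum was GATA4 and HHEX.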

How the data were processed

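RNA sequencing libraries of LX-2 cells (3 Vector-CM, 3 FGFBP1-CM) were grouped by their labels. The authors aligned paired-end reads and deposited raw counts per gene beside FPKM values. The submitters' processing notes name HISAT2 2.0.5, featureCounts 1.5.0-p3, DESeq2 1.16.1, edgeR and the build hg18; strandedness is not given in the sources used here, so reads of overlapping genes may be misassigned. Coordinates are of GRCh38, by matched identifier or symbol, and need not be those used for counting. The 175 rows with identifiers of the authors' own (0.0733 to 0.0800% of counts) were kept in the input of the fit. Members and list genes were looked up only among the rows with an Ensembl identifier. Deposited columns with the authors' own fold changes and p-values were not used.

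Counts were fitted with edgeR 4.0.16 (R 4.3.3; TMM scaling, filterByExpr with a minimum count of 10, quasi-likelihood test, Benjamini-Hochberg adjustment over 16707 genes, threshold 0.05). Standard errors are the coefficient divided by the square root of F. Intervals of pooled ratios are exact at 95%. The pipeline was tested on simulated data. Members and lists were chosen with earlier results of these data known. Named genes were all 33 members, the nearest tested gene on each side of each called locus, and the called genes or 3 most abundant genes by FPKM of each other list. An exact permutation test of 3 against 3 libraries cannot go below p = 0.1. The alternatives tried were DESeq2 1.42.0, limma 3.58.1 on log2(FPKM + 1) and log2(FPKM + 0.1), a block for the replicate number, RLE scaling, scaling by library size, a filter of 1 count, and leaving out each library.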

Additional observations from a re-analysis of the deposited data

How the results depend on the processing

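All members called under any alternative were lower in FGFBP1-CM. Against 4 members and 20 genes called, RLE scaling called 5 members and 38 genes, library size alone 4 and 17, and no filter beyond 1 count 8 (AFP, ALB, AMBP, APOB, FGA, FGG, SERPINA1 and TF) and 1382, where the prior degrees of freedom became infinite. DESeq2 called 1 member, SERPINA1, and 580 genes, and gave no adjusted p for 28 of the 33 members. limma called 0 members and 1 gene on log2(FPKM + 1), and again 0 and 1 on log2(FPKM + 0.1), scales that shrink low values (the log2 difference of APOB was -0.26 on the first). In edgeR 8 of the 14 tested members had an unadjusted p under 0.05, beside 3630 of the 16707 tested genes. Because the members were chosen on this contrast, nothing is read from that count. Leaving out each library gave 1 to 6 members and 4 to 883 genes, and nothing is read from these member counts either. The replicate block called 4 members and 90 genes. Same-numbered libraries deviated with correlations of -0.12, -0.02 and 0.14 over 16531 genes, and differently numbered ones with -0.21 to 0.19. No pairing by number was seen, though 3 libraries per group cannot exclude one. The direction of FOXA1 turned to -0.0174 without Vector-CM replicate 1 and -0.00638 without FGFBP1-CM replicate 1, and that of GATA4 to -0.0362 without FGFBP1-CM replicate 1, with the highest values on leaving out a library at 0.356 and 0.0945. The causes were not tested. With 19 of 33 members under the filter, depth limits most comparisons.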

Other observations

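A few sparse genes outside the set were chosen after their values were seen, all of them lower in FGFBP1-CM. Sparse genes of the same lists were also higher. ITIH4 had 2, 0 and 1 counts in Vector-CM against 7, 2 and 1, a pooled ratio of 3.03 with an interval of 0.780 to 17.1. CPB2 had 7, 4 and 4 counts against 17, 8 and 3, a ratio of 1.70 with an interval of 0.876 to 3.42. IGF2 had 0, 0 and 0 counts against 1, 2 and 1. GPC3, a cell surface proteoglycan of fetal liver, had 4, 5 and 7 counts in Vector-CM and 0, 1 and 0 in FGFBP1-CM, a pooled ratio of 0.0568 with a 95% exact counting interval of 0.00135 to 0.366. MTTP, the large subunit of the complex that loads lipid onto APOB, had 3, 2 and 7 counts against 1, 2 and 0, a pooled ratio of 0.227 with an interval of 0.0412 to 0.842. Both were below the filter. SAA1, an acute phase protein, had 17, 13 and 14 counts against 7, 7 and 8, with groups that did not overlap and a log2 fold change of -1.12 with a standard error of 0.322, and it did not pass the threshold in edgeR.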
